A study of Mus musculus with 12 samples.

Results

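The genes Sh3bgrl2, Mgst1, Adgrl2, Upb1, Sspn, Klhl9, Arhgap33, Pdlim1, Smyd2 and Nedd4, 10 of the 18194 genes measured, were picked for higher levels in B cells with both Bcl6 alleles floxed than in B cells with none. Each was matched by its symbol in the platform annotation, and where a gene had several probe sets the one highest on average was taken. Their difference between Bcl6(flox/flox) and Bcl6(+/+) arrays is therefore how they were found, and it is described below without a test. What that choice did not use is tested. For 8 of the genes these are the place of the heterozygous arrays between the other genotypes and the cell type difference in them. How related genes behave is tested as well.

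B cells were sorted from the spleens of 10-week-old C57BL/6 females, and their RNA was hybridised to 12 Affymetrix arrays, 2 for each of 6 groups. The groups were Bcl6(flox/flox), Bcl6(+/flox) and Bcl6(+/+), each in follicular (FO) cells sorted as B220+AA4.1-CD21intCD23+ and in marginal zone (MZ) cells sorted as B220+AA4.1-CD21highCD23low. All mice, the Bcl6(+/+) controls included, were mb1-cre(+/-), an allele that drives Cre recombinase in the B lineage, so no group lacked Cre. Whether the arrays of a group represent separate mice is not stated in the labels, and p-values then measure only the spread between these arrays, which may be technical. Values are log2 expression, so a difference of 1 is a doubling.

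BCL6 is a transcriptional repressor that binds DNA through zinc fingers and recruits corepressors; it is best known for sustaining the germinal centre reaction, and its level in resting B cells is lower. Genes that it holds down can rise when it is lost, as can genes further downstream, and an array does not separate these. The DNA sequence that BCL6 recognises resembles the sites of STAT factors, with TTC and GAA at its ends. The 10 genes belong to no single pathway. They encode 3 enzymes of small molecule or protein modification, 2 proteins of ubiquitin ligases, membrane proteins and regulators of the cytoskeleton. The remaining gene, Sh3bgrl2, encodes a small protein with a thioredoxin-like fold.

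Because the genes share a higher level in flox/flox arrays, the sequence around their annotated starts was examined. RefSeq windows of 300 bases, from 250 bases before to 50 after a start (GRCm38.p6), were given for 9 of the 10 genes (all but Arhgap33), 12 windows in all, since Mgst1, Sspn and Nedd4 had 2 each. The motif TTCNNNGAA, which reads the same on both strands, lay in 5 of these 12 windows, from 5 genes, and in 8.3% of all 32851 windows. The narrower motif TTCCTNGAA, searched on both strands and a special case of the first, lay in 3 of the 12 windows and in 1.59% of all windows. The 5 matches are shown because they are the stretches that resemble a BCL6 or STAT site, with the motif in capitals and 10 bases on either side, 5′ to 3′ on the gene's strand. In Smyd2 the match begins 86 bases before the start (chr1:189922359-189922387, minus strand), in Sspn 144 bases before its second start (chr6:145933968-145933996, plus strand), in Adgrl2 70 bases before (chr3:148954687-148954715, minus strand), in Nedd4 23 bases before its second start (chr9:72693265-72693293, plus strand) and in Mgst1 at base 31 after its second start (chr6:138141607-138141635, plus strand).
Smyd2: gagcgccgagTTCCTTGAAggccggcggc
Sspn: tgtcttgtacTTCCTGGAAacaaaaaagt
Mgst1: caggagaagcTTCCAGGAAatgagaaaac
Adgrl2: gactgctgggTTCGATGAAgctgggcatt
Nedd4: ggtcgtccttTTCTATGAAatctggtatc
Smyd2, Sspn and Mgst1 hold the narrower motif, Mgst1 on the opposite strand. Sh3bgrl2, Upb1, Klhl9 and Pdlim1 held neither motif in their windows, which says only that these letters are not there. The 100 bases before the start of Sh3bgrl2, the gene with the highest MZ difference, are given for comparison (chr9:83548238-83548337, plus strand).
Sh3bgrl2: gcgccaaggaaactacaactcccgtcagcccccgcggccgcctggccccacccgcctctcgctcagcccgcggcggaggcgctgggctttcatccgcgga
The windows of Smyd2 (43 CpG dinucleotides), the first of Nedd4 (35) and that of Sh3bgrl2 (32) were CpG-rich, while that of Adgrl2 (4), the first of Sspn (2) and the second of Mgst1 (1), which holds its motif, were CpG-poor, against a median of 7 over all windows. A motif match is a description of the sequence, and these arrays carry no measurement of binding.

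One array stood apart in RNA quality. On MZ +/+ replicate 1 the 3′ Gapdh control exceeded the 5′ one by 6.90, against -0.20 to 0.63 on the other 11 arrays, so an MZ difference from +/+ is given without either +/+ array where 1 of them moves it by over 1.5 times. Of the 3 follicular markers measured, Fcer2a, the gene of CD23, was 8.85 to 9.50 in MZ and 13.63 to 14.25 in FO arrays, while Cxcr5 (10.53 to 12.53 in MZ and 10.64 to 12.62 in FO arrays) and Klf2 (9.07 to 13.39 in MZ and 13.10 to 14.07 in FO arrays) overlapped. All 7 marginal zone markers were higher on every MZ array than on every FO array, S1pr3 at 11.32 to 13.24 in MZ and 4.51 to 7.37 in FO arrays. All 6 measured platelet markers and the T cell genes Cd3e, Cd3d and Cd4 lay within 0.5 of the minimum on all arrays; of the other 2 T cell markers, Cd8a was at 2.55 to 2.81 in MZ and 4.22 to 4.53 in FO arrays, and Cd2, which B cells also express, at 11.49 to 11.79 in MZ and 12.26 to 12.62 in FO arrays. The list of 8 monocyte, macrophage and dendritic cell markers, with Itgam and Itgax near the minimum, averaged 4.09 to 4.69 on the replicate 1 arrays and 3.41 to 3.88 on the replicate 2 arrays, and its part in the results was not tested. The neutrophil list (6 of 7 markers on the array, with Mpo and Elane near the minimum throughout) averaged 5.47 on FO flox/flox replicate 1, 4.41 on FO +/flox replicate 1, 4.19 on MZ flox/flox replicate 1 and 4.60 on MZ +/+ replicate 1, against 2.26 to 2.31 on the other 8. A list of 9 immediate early genes, Fos and Egr1 among them, differed within groups. It averaged 9.25 and 12.55 on FO +/+ replicates 1 and 2, and 8.01 and 10.21 on those of MZ +/flox. In the other groups it averaged 10.33 to 11.94, and its part in the results was not tested. Of 6 erythroid markers measured, Hba-a1, Epor, Klf1 and Alas2 lay near the minimum and Slc4a1 at 2.71 to 2.78 on the FO arrays, while Car2 alone, the gene of carbonic anhydrase 2, was at 4.43 and 4.56 in FO flox/flox, 7.23 and 7.44 in FO +/flox and 8.15 and 8.49 in FO +/+ arrays. In MZ cells Car2 was at 6.68 on +/+ replicate 1 and at 2.49 to 2.59 on the remaining arrays. Bcl6 itself had 2 probe sets that moved apart: in FO cells 1 was at 2.36 and 2.48 in flox/flox, against 4.94 and 5.61 in +/+ arrays, and the other at 12.70 and 12.88, against 11.95 and 11.65. The sources used here do not give the exons removed or covered, so the genotype labels could not be checked with either.

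**Figure D1:**
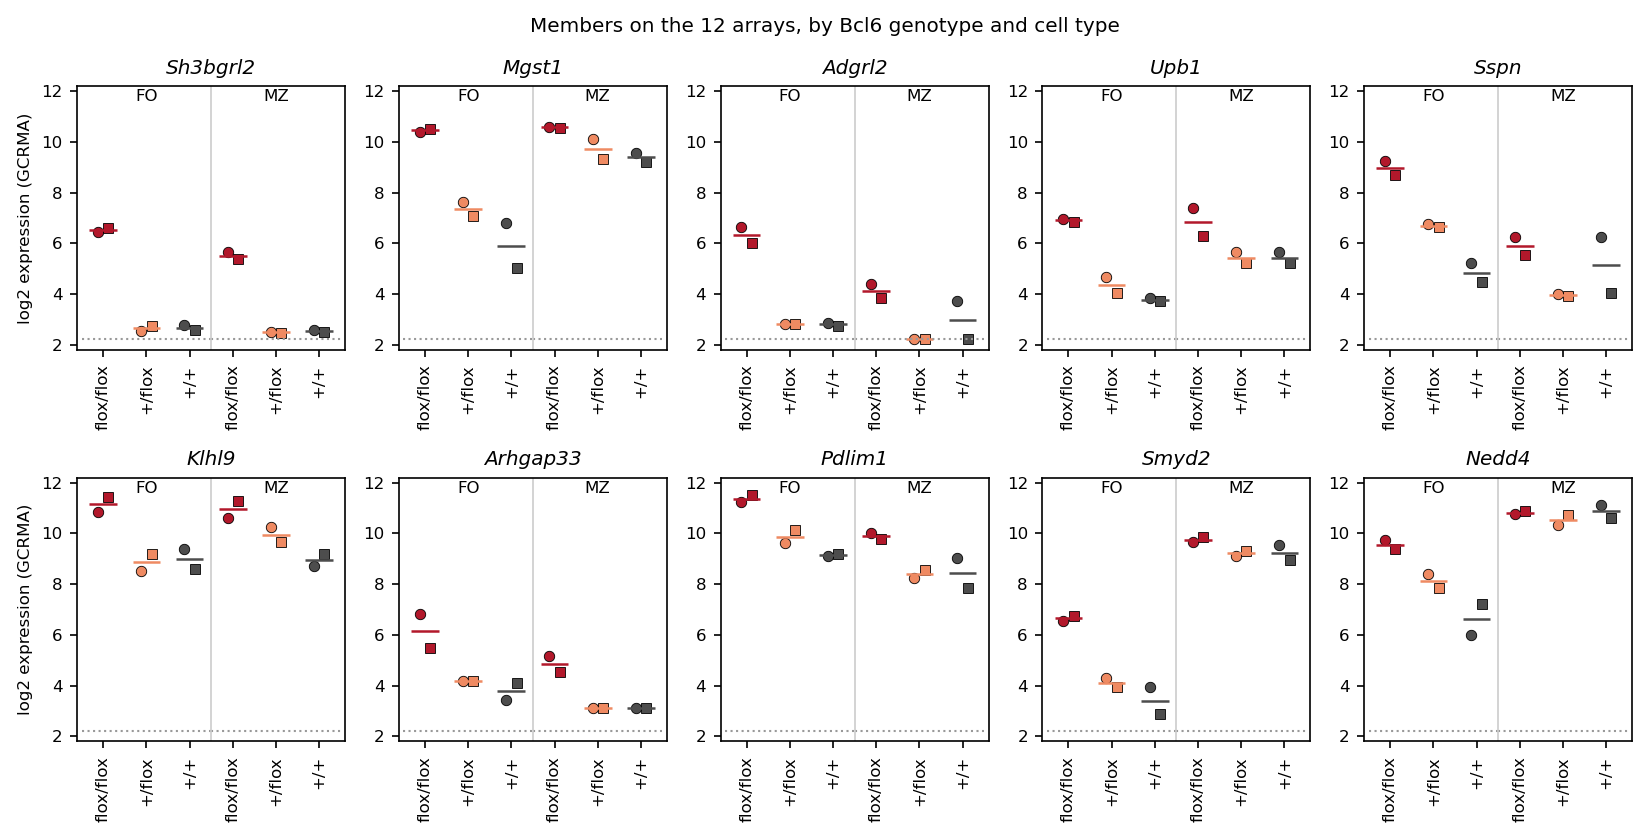
Log2 expression of the 10 genes on every array (y axis), by Bcl6 genotype and cell type (x axis); circles are replicate 1, squares replicate 2, horizontal lines the group means and dotted lines the minimum value of the arrays. In FO cells the flox/flox arrays lie above the +/flox and +/+ arrays for all 10 genes, and in MZ cells Smyd2 and Nedd4 are high in every genotype.

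In FO cells both flox/flox arrays lay above both +/+ arrays for all 10 genes, where 18.0% of the 9307 genes tested did so; nothing is read from this, since the genes were chosen by that contrast. In MZ cells, 8 of the 10 did so, against 9.96% of tested genes; Sspn and Nedd4 were the exceptions. The same 8 genes therefore did so in both cell types, against 3.58% of tested genes. The flox/flox minus +/+ difference ran from 2.15 (Klhl9) to 4.54 (Mgst1) in FO and from -0.05 (Nedd4) to 2.95 (Sh3bgrl2) in MZ cells, with medians of 3.18 and 1.29, against 0.00 and -0.08 over all genes tested. A lower level in such bulk samples can mean fewer cells that express a gene or less RNA in each, which cannot be told apart. Without MZ +/+ replicate 1 the MZ differences ran from 0.21 (Nedd4) to 2.98 (Sh3bgrl2), and without MZ +/+ replicate 2 from -0.36 (Sspn) to 2.93 (Sh3bgrl2).

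Sh3bgrl2 encodes a small protein of a family with a thioredoxin-like fold. It was at 6.46 and 6.59 in FO flox/flox, at 2.54 and 2.76 in FO +/flox and at 2.77 and 2.58 in FO +/+ arrays. In MZ cells it was at 5.64 and 5.37 in flox/flox, 2.52 and 2.46 in +/flox and 2.58 and 2.52 in +/+ arrays. All 8 arrays with an unfloxed allele lay within 0.6 of the minimum of the arrays, and the flox/flox arrays were 14.4-fold above +/+ in FO and 7.74-fold in MZ cells, ratios that depend on the background correction at such low values. A second probe set showed a smaller rise, at 3.36 and 3.80 in FO flox/flox against 2.43 and 2.46 in FO +/+ arrays. In MZ cells that probe set hardly rose, at 2.81 and 3.12 in flox/flox against 2.72 on both +/+ arrays.

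Mgst1, a membrane-bound glutathione transferase that also reduces lipid peroxides, showed a graded pattern in FO cells. It was at 10.38 and 10.52 in flox/flox, 7.61 and 7.09 in +/flox and 6.79 and 5.03 in +/+ arrays, with no overlap between genotypes. In MZ cells it was high in all, at 10.58 and 10.56 in flox/flox, 10.12 and 9.33 in +/flox and 9.56 and 9.22 in +/+ arrays, where +/flox and +/+ arrays overlapped. A second Mgst1 probe set lay at 2.21 or 2.22 on all 12 arrays, so the rise rests on 1 probe set. Upb1, the beta-ureidopropionase of the last step of pyrimidine breakdown, was at 6.95 and 6.85 in FO flox/flox, 4.67 and 4.03 in FO +/flox and 3.83 and 3.74 in FO +/+ arrays. In MZ cells Upb1 was at 7.40 and 6.28 in flox/flox arrays, while +/flox (5.64 and 5.21) and +/+ (5.64 and 5.23) arrays coincided; the MZ difference of 1.41 was 0.85 without flox/flox replicate 1. Smyd2, a lysine methyltransferase whose substrates include p53, was at 6.56 and 6.74 in FO flox/flox, 4.28 and 3.93 in FO +/flox and 3.93 and 2.88 in FO +/+ arrays. Its MZ levels were 9.64 and 9.86 in flox/flox, 9.12 and 9.31 in +/flox and 9.53 and 8.94 in +/+ arrays, a flox/flox minus +/+ difference of 0.52 ± 0.34 (SE from the model over 12 arrays), which was 0.81 without +/+ replicate 1 and 0.22 without +/+ replicate 2. Of these 3 enzymes, Smyd2 had the lowest MZ and the second FO difference (3.25 ± 0.34).

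The ubiquitin ligase proteins differed in where they changed. Nedd4, a HECT-type ubiquitin ligase, was at 9.73 and 9.38 in FO flox/flox, 8.40 and 7.86 in FO +/flox and 5.98 and 7.23 in FO +/+ arrays, again without overlap. In MZ cells it was at 10.77 and 10.87 in flox/flox, 10.31 and 10.74 in +/flox and 11.13 and 10.61 in +/+ arrays, where the +/+ arrays overlapped both other genotypes. Its MZ difference of -0.05 was 0.21 without +/+ replicate 1 and -0.30 without +/+ replicate 2. Both other Nedd4 probe sets were higher in FO flox/flox than in FO +/+ arrays. The first was at 7.89 and 7.53 in flox/flox, 6.92 and 5.96 in +/flox and 3.81 and 4.11 in +/+ arrays, without overlap. The second was at 6.70 and 4.75, 6.22 and 3.35, and 3.35 and 2.63. Its +/flox arrays overlapped the flox/flox arrays, and 1 of them equalled a +/+ array. In MZ cells the second of these was at 9.19 and 8.05 in flox/flox against 6.90 and 7.52 in +/+ arrays, so the Nedd4 probe sets disagree there. Klhl9, a substrate adaptor of CUL3 ubiquitin ligases, had FO levels of 10.85 and 11.44 in flox/flox, 8.51 and 9.20 in +/flox and 9.39 and 8.61 in +/+ arrays. In MZ cells Klhl9 was at 10.59 and 11.29 in flox/flox, 10.23 and 9.66 in +/flox and 8.71 and 9.20 in +/+ arrays; it was the single member whose +/flox arrays lay above both +/+ arrays in MZ cells.

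Among the membrane proteins, Adgrl2, the adhesion G protein-coupled receptor latrophilin 2, was at 6.63 and 6.01 in FO flox/flox, 2.83 and 2.82 in FO +/flox and 2.86 and 2.76 in FO +/+ arrays. In MZ cells it was at 4.38 and 3.84 in flox/flox, 2.24 and 2.24 in +/flox and 3.74 and 2.22 in +/+ arrays. The 3.74 came from MZ +/+ replicate 1, and the MZ difference of 1.13 was 1.89 without that array and 0.37 without +/+ replicate 2. A second Adgrl2 probe set was raised on replicate 1 alone of each flox/flox group, at 5.11 and 2.62 in FO and 4.23 and 2.25 in MZ cells, against 2.62 on both FO +/+ and 2.25 on both MZ +/+ arrays. Those 2 replicate 1 arrays also carried the neutrophil signal given above, whose part in this value was not tested. The representative Adgrl2 probe set was raised on both.

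Sspn encodes sarcospan, a tetraspanin-like partner of the dystrophin complex. It was at 9.26 and 8.70 in FO flox/flox, 6.77 and 6.63 in FO +/flox and 5.21 and 4.49 in FO +/+ arrays, 3 separate levels. In MZ cells it was at 6.23 and 5.56 in flox/flox, 4.01 and 3.92 in +/flox and 6.26 and 4.03 in +/+ arrays, so flox/flox and +/+ overlapped through MZ +/+ replicate 1. The MZ difference was 0.75 ± 0.62, but 1.87 without that array, -0.36 without +/+ replicate 2 and 0.42 without flox/flox replicate 1. A second Sspn probe set lay at 2.21 to 2.24 on all 12 arrays and showed no change.

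For the cytoskeletal regulators, Arhgap33, a GTPase-activating protein for Cdc42, was at 6.82 and 5.50 in FO flox/flox, 4.17 and 4.17 in FO +/flox and 3.44 and 4.11 in FO +/+ arrays. In MZ cells it was at 5.18 and 4.53 in flox/flox, against 3.10 to 3.12 on all 4 arrays with an unfloxed allele. Pdlim1, a PDZ and LIM domain protein that binds alpha-actinin, was at 11.22 and 11.51 in FO flox/flox, 9.60 and 10.13 in FO +/flox and 9.11 and 9.20 in FO +/+ arrays. Its MZ levels were 10.00 and 9.78 in flox/flox, 8.22 and 8.54 in +/flox and 9.03 and 7.85 in +/+ arrays. The MZ difference of 1.45 was 2.04 without +/+ replicate 1 and 0.86 without +/+ replicate 2. The other Pdlim1 probe sets lay within 0.5 of the minimum on all 12 arrays. FO flox/flox replicate 1 had a neutrophil list mean of 5.47 and replicate 2 one of 2.31. All 10 genes were above both +/+ arrays on each, but they were chosen by that contrast, so nothing is read from this. The part of the neutrophil signal in their levels was not tested.

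**Figure D2:**
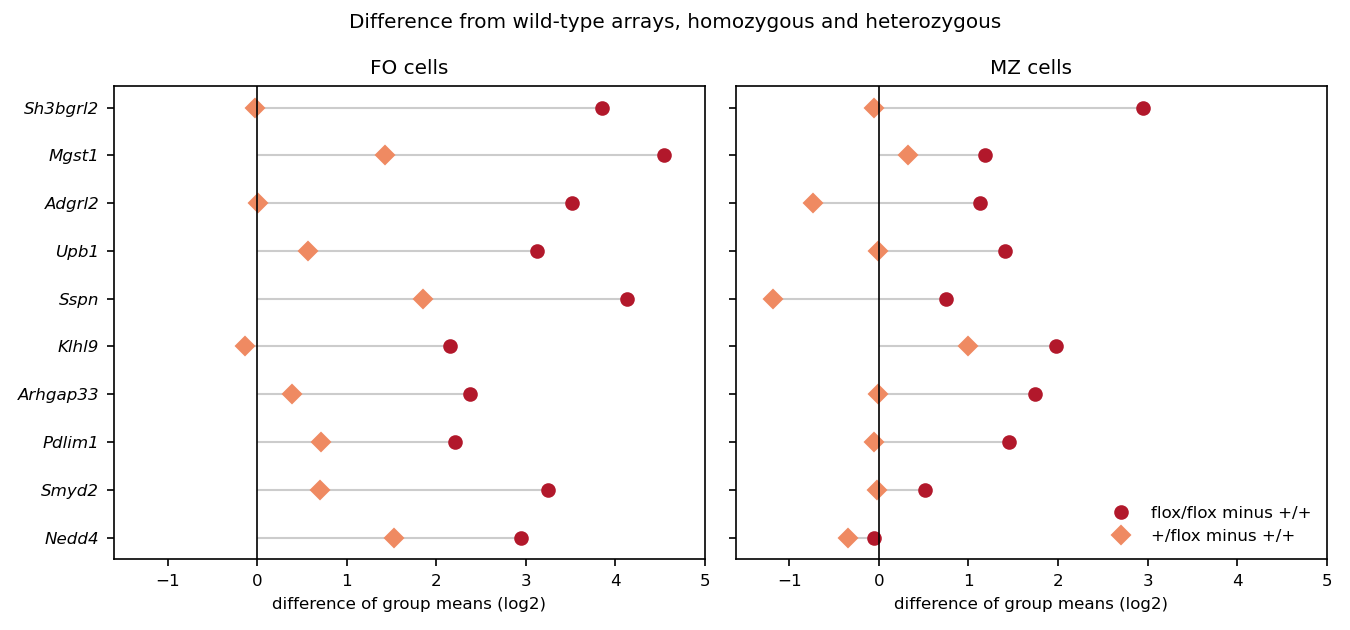
Difference of group means from +/+ (log2, x axis) for flox/flox (circles) and +/flox (diamonds) in FO (left) and MZ (right) cells, per gene. Sspn, Nedd4 and Mgst1 have the highest +/flox values in FO cells (1.85, 1.53 and 1.43), and in MZ cells most diamonds lie near 0, with Klhl9 at 0.99 and Sspn at -1.18.

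How far a single floxed allele moved each gene was expressed as the place of the +/flox mean between the +/+ mean (0%) and the flox/flox mean (100%) on the log2 scale. In FO cells Nedd4 stood at 51.8%, Sspn at 44.8%, Pdlim1 at 32.3%, Mgst1 at 31.6%, Smyd2 at 21.6%, Upb1 at 18.1% and Arhgap33 at 16.5%. Adgrl2 (0.4%), Sh3bgrl2 (-0.8%) and Klhl9 (-6.7%) stood at the +/+ level. In MZ cells Klhl9 stood at 50.0% and Mgst1 at 28.4%, while Upb1 (-0.6%), Arhgap33 (-0.5%), Sh3bgrl2 (-2.1%), Smyd2 (-3.2%) and Pdlim1 (-4.4%) stood at the +/+ level. Adgrl2 stood at -65.5% in MZ cells, below a +/+ mean raised by MZ +/+ replicate 1 (3.74, against 2.22 on replicate 2). Its +/flox arrays (2.24 and 2.24) lay next to that replicate 2. For Smyd2 and Pdlim1 the MZ +/flox arrays lay below +/+ replicate 1 (9.53 and 9.03) and above +/+ replicate 2 (8.94 and 7.85). Their MZ places therefore depend on replicate 1 too, and places were not recomputed without it. No place was computed for Sspn and Nedd4, whose MZ flox/flox and +/+ arrays overlapped. The place depends on the scale: on linear values the FO places were 27.5% for Nedd4, 15.4% for Sspn, 18.3% for Pdlim1, 7.0% for Mgst1, 6.8% for Smyd2, 6.7% for Upb1 and 6.0% for Arhgap33, and the MZ places 33.2% for Klhl9 and 24.1% for Mgst1. Both +/flox arrays lay above both +/+ arrays for 6 of the 10 genes in FO cells, against 12.8% of tested genes, and for 1 of the 10 in MZ cells, against 10.4%. Both flox/flox arrays lay above both +/flox arrays for 10 of the 10 in each cell type, against 13.6% of tested genes in FO and 18.4% in MZ cells. The +/+ and flox/flox arrays had served to choose the genes, so these counts are descriptions.

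The place of the +/flox mean was also measured as its difference from the midpoint of flox/flox and +/+ on the log2 scale, a contrast orthogonal to the one the genes were chosen by. For Sh3bgrl2 this was -1.95 in FO and -1.54 in MZ cells, and for Adgrl2 -1.74 and -1.31. Both genes passed the filter on low values through their flox/flox arrays alone, and all their +/flox arrays lay near the minimum, so their +/flox mean had to fall below the midpoint with little spread, and no test is given for them.

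None of the other 8 genes passed, over both cell types, in FO cells or in MZ cells, where 0.0215%, 0.0215% and 0.0107% of all genes tested did. All 8 lay below the midpoint over both cell types. Before adjustment, Upb1, Sspn, Klhl9, Arhgap33, Pdlim1 and Smyd2 had a limma p under 0.05 there, while Mgst1 and Nedd4 did not. Of all genes tested 1.78% had such a p. Genes picked for a clear difference tend to have a small spread, which can make p too small. Over both cell types Nedd4 was nearest to the midpoint, at -0.14 (95% interval -0.70 to 0.42; limma adjusted p = 1), and Upb1 was at -0.85 (-1.37 to -0.34; adjusted p = 1) and Arhgap33 at -0.84 (-1.41 to -0.26; adjusted p = 1). For Arhgap33 all MZ +/flox and +/+ arrays lay at 3.10 to 3.12, below the filter value of 4, which limits what its value can show. In FO cells Sspn was at -0.21 (-1.45 to 1.02) and Klhl9 at -1.22 (-2.02 to -0.42). In MZ cells Sspn was at -1.56 (-2.79 to -0.32) and Klhl9 at 0.00 (-0.80 to 0.80). The MZ value of Sspn was -1.0 without +/+ replicate 1 and -2.12 without +/+ replicate 2, where it passed (limma adjusted p = 0.0489). The difference between the cell types in this place passed for none of these 8 genes, nor for any gene tested (0%; limma adjusted p of 0.972 or more for the 8). Of the 8, only Klhl9 had a limma p under 0.05 before adjustment in that comparison.

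**Figure D3:**
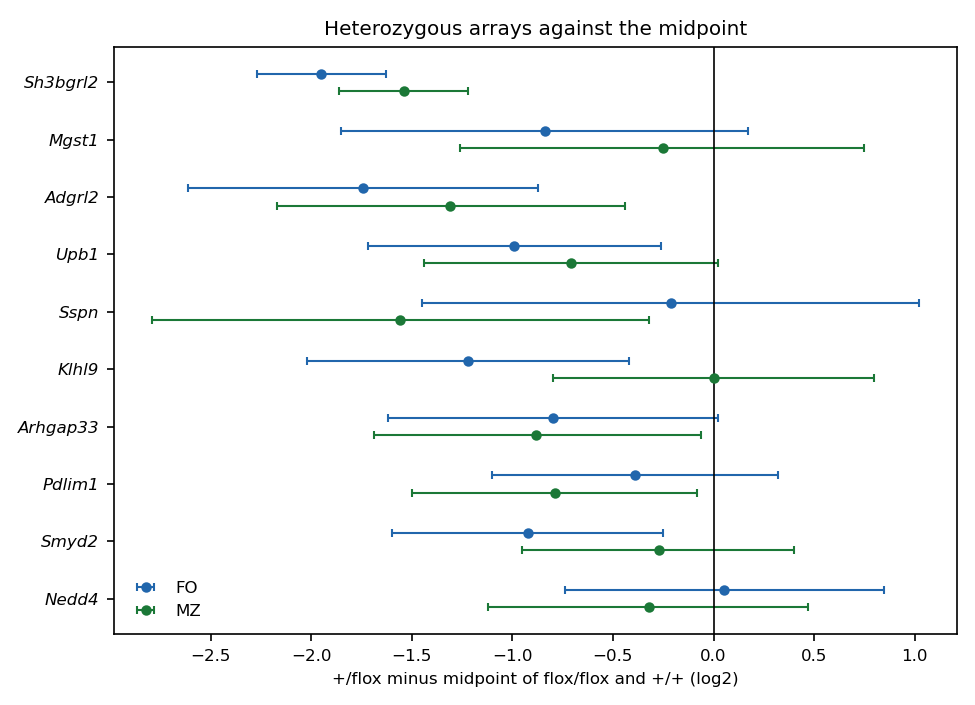
The +/flox group mean minus the midpoint of flox/flox and +/+ (log2, x axis), with 95% intervals from the limma model as bars, for FO (blue) and MZ (green) cells. Sh3bgrl2 lies at -1.95 in FO and -1.54 in MZ cells, where it had to lie below 0, while the intervals of Nedd4 and Mgst1 cross 0 in both.

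The +/flox arrays took no part in the choice, so the cell types were compared in them. Mgst1, Smyd2 and Nedd4 were higher and Sspn and Pdlim1 lower in MZ than in FO cells, 5 of the 8 genes given a test. Of all genes tested 23.2% passed, 9.94% higher and 13.3% lower. Both MZ arrays lay above both FO arrays for 5 of the 10, against 23.6% of genes tested. Smyd2 differed most, at 9.12 and 9.31 in MZ +/flox and 4.28 and 3.93 in FO +/flox arrays, an MZ minus FO difference of 5.11 ± 0.34 (limma adjusted p = 2.12e-05). Nedd4 was higher in MZ cells by 2.39 ± 0.40 (limma adjusted p = 0.00338) and Mgst1 by 2.38 ± 0.51 (adjusted p = 0.0112). Sspn differed by -2.74 ± 0.62 (limma adjusted p = 0.0147) and Pdlim1 by -1.49 ± 0.36 (adjusted p = 0.0183). Upb1 (1.08, 95% interval 0.23 to 1.92) and Klhl9 (1.10, 0.17 to 2.02) did not pass, nor did Arhgap33 (-1.06, -2.00 to -0.11). Adgrl2 (-0.59) and Sh3bgrl2 (-0.16) lay near the minimum on all 4 +/flox arrays. A small difference was therefore fixed in advance for both, and no test is given for them. Arhgap33 did pass after quantile normalization (limma adjusted p = 0.0405), with the 4 +/flox arrays alone (0.0183) and without either FO flox/flox array (0.0347), and Upb1 without either MZ flox/flox array (0.0286) and with a replicate block (0.0207).

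Smyd2 and Nedd4 passed without each array in turn. Mgst1 did not pass without FO +/flox replicate 2 or MZ +/flox replicate 1 (adjusted p = 0.0728 and 0.0882), Sspn without any 1 of the 4 +/flox arrays (0.0628 to 0.0739) and Pdlim1 without FO +/flox replicate 2 or either MZ +/flox array (0.0509 to 0.113), nor with the mean of its probe sets (0.122). The arrays' minimum was 2.21262 in FO and 2.21924 in MZ cells, as 2 separate normalization runs would give, and such a difference cannot be told apart from cell type. Smyd2 and Nedd4, whose +/+ means were 9.23 and 10.87 in MZ and 3.41 and 6.61 in FO cells, changed by 0.52 and -0.05 in MZ and by 3.25 and 2.94 in FO cells. In FO flox/flox arrays Nedd4 (9.55) and Smyd2 (6.65) lay below those MZ +/+ means, and Mgst1 (10.45) lay above its MZ +/+ mean of 9.39.

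**Figure D4:**
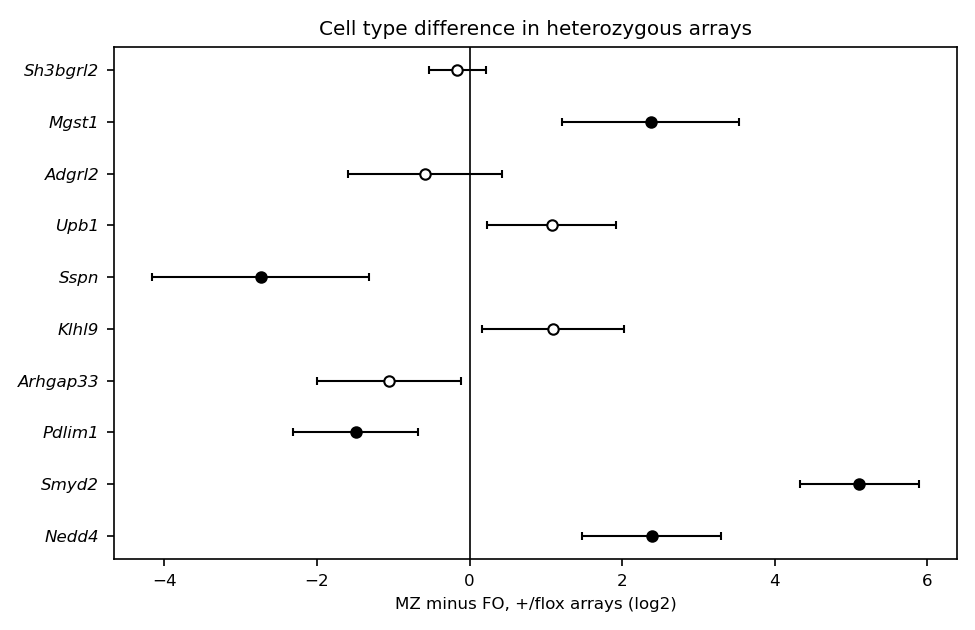
MZ minus FO difference in the +/flox arrays (log2, x axis) per gene, with 95% intervals from the limma model as bars; filled points passed the adjusted threshold. Smyd2 is highest at 5.11, and Sspn is lowest at -2.74. Sh3bgrl2 and Adgrl2 lay near the minimum in both cell types, and no test is given for them.

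To see whether relatives of these genes moved with them, 109 family members, binding partners and enzymes of the same pathways were listed, of which 102 were on the array and 68 passed the filter. For flox/flox against +/+ none of the 68 passed over both cell types, in FO cells or in MZ cells, where 0.462%, 0.430% and 0.0645% of all genes tested did. At a limma p under 0.05 before adjustment the counts were 9, 11 and 5 of the 68 (13.2%, 16.2% and 7.35%), against 844, 649 and 566 of the 9307 genes tested (9.07%, 6.97% and 6.08%). The median differences were -0.01, 0.04 and -0.06, against -0.04, 0.00 and -0.08 over all genes tested. The list around Mgst1, of which 12 genes were tested, held 5 of the 9. These were Gclm, Gsto1, Mgst2 (0.41) and Gclc (0.59), higher in flox/flox arrays, and Gstk1 (-0.44), lower in them. Over the 12 genes the median difference was 0.04, and 7 differences were above 0. Gclm, a subunit of the enzyme that starts glutathione synthesis, averaged 7.40 ± 0.17 in flox/flox and 6.51 ± 0.05 in +/+ FO arrays and 7.18 ± 0.00 in flox/flox and 6.63 ± 0.11 in +/+ MZ arrays (SD, n = 2 each), a difference of 0.72 ± 0.13 over both (SE; limma adjusted p = 0.0673). It did pass after quantile normalization over all arrays (adjusted p = 0.0345) and without MZ +/+ replicate 2 (0.0396). Gsto1, an omega-class glutathione transferase, differed by 1.17 ± 0.26 (limma adjusted p = 0.143).

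Sh3bgrl, the family member nearest in name to Sh3bgrl2, differed by -0.22 ± 0.18 over both cell types (limma adjusted p = 0.755). Adgrl1, latrophilin 1, differed by 0.68 ± 0.30 (adjusted p = 0.548). Without FO flox/flox replicate 2 its difference was 1.09. That setting leaves replicate 1, with a neutrophil list mean of 5.47, alone in its group. In FO cells Adgrl1 was low, at 2.61 ± 0.02 in +/+ and 3.41 ± 1.15 in flox/flox arrays (mean and SD). Uck2, a uridine-cytidine kinase of pyrimidine salvage, differed by 1.10 ± 0.47 (adjusted p = 0.535), with 1.94 ± 0.67 in FO cells (adjusted p = 0.495), and Klhl6, another Kelch-like adaptor with a known role in B cells, by -0.57 ± 0.12 (adjusted p = 0.115). Among the Nedd4 relatives, Itch differed by -0.20 ± 0.13 (adjusted p = 0.691). Smyd4 differed by -0.44 ± 0.16 (adjusted p = 0.431), and Sgcb, a sarcoglycan of the complex that holds sarcospan, by -0.26 ± 0.16 (adjusted p = 0.692). Without MZ +/+ replicate 2, which leaves the array with the low 5′ signal alone in its group, Arhgap45 passed over both cell types (1.22, adjusted p = 0.0315) and Arhgap45 and Pdlim2 in MZ cells (2.27 and 1.99, adjusted p = 0.0117 and 0.00794).

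The profile of the 10 genes was also set against all others, as the median of their values minus the +/+ mean of the cell type on each array. This median profile was at 3.16 and 3.13 in FO flox/flox, 0.66 and 0.46 in FO +/flox, 1.48 and 1.02 in MZ flox/flox and -0.07 and -0.08 in MZ +/flox arrays. The 5 genes outside the 10 with the smallest root mean square difference from it over 12 arrays were Il18 (0.419), Thyn1 (0.535), Gad1 (0.576), Dctd (0.598) and S100a6 (0.598), against a median of 1.447 over all genes tested. Il18, which encodes an interleukin-1 family cytokine, was 2.37 above +/+ in flox/flox and 0.85 in +/flox FO cells, and 1.26 and 0.34 above it in MZ cells. S100a6, a calcium-binding protein, was 2.74 and 1.02 above +/+ in FO and 2.14 and 0.03 in MZ cells. Increases averaged over both cell types were ranked among genes that passed (0.333% of those tested) without overlap in either cell type. Outside the 10 genes, those among the 15 highest were of Ackr3, Pik3r6, Il18, Plxna1, Thyn1, Ccnd2 and Gm3227. Pik3r6 was 4.32 above +/+ in FO but 0.17 in MZ flox/flox cells, where its mean of 2.39 lay near the minimum. Ackr3 was 9.29 above +/+ in FO and 0.93 in MZ flox/flox cells.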

How the data were processed

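RNA of sorted B cells was labelled from its 3′ end for 12 arrays, as the labels' protocols state. The authors deposited log2 expression for every probe set. Per the submitters' processing notes they used GCRMA, for which the sources used here give no version. Its background correction uses the probe sequence and leaves low values at a shared minimum, so differences of genes near it depend on that correction. Of 45101 probe sets, 34958 had 1 symbol, 932 had several and 9211 had none listed; gene numbers of 34754 matched RefSeq, and 0 symbols changed. The probe set with the highest mean stood for each of 18194 genes. Tests covered the 9307 genes that reached a log2 value of 4 on 2 or more arrays, all 10 members among them; Sh3bgrl2 and Adgrl2 reached it through flox/flox arrays alone.

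Means of the 6 groups were fitted over all 12 arrays with limma 3.58.1 (lmFit, eBayes) in R 4.3.3, with 6 residual degrees of freedom. P-values are two-sided, adjusted by Benjamini-Hochberg over all genes tested at a threshold of 0.05. The script was tested on simulated data. The members, the related-gene lists and the tests were chosen with earlier results of these data known. Named genes are the 10 members and related genes that passed or were among the 2 smallest p of their list. The 5 genes nearest in profile and genes outside the members among the 15 highest increases are named too. Genes of the Mgst1 list with a p under 0.05 before adjustment were named after seeing them. Genes that passed in an alternative alone were named after seeing it. Other settings tried were no filter or a stricter one, the mean of a gene's probe sets, trended moderation, weighted arrays, quantile normalization, 1 cell type alone, a replicate block and leaving out each array. The number of arrays limits the precision.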

Additional observations from a re-analysis of the deposited data

Results flagged for a closer look

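Sspn was singled out because its +/flox arrays lay on opposite sides of the +/+ arrays in the cell types. Both +/flox arrays lay above both +/+ arrays in FO cells and below both in MZ cells, and the +/flox minus +/+ difference was -1.18 in MZ and 1.85 in FO cells, an MZ minus FO difference of -3.03 that was not tested, since the +/+ arrays served to choose the gene. The MZ +/+ arrays were at 6.26 and 4.03, the first being the array with the low 5′ signal, and the second lay next to the MZ +/flox arrays (4.01 and 3.92). Groups of 2 arrays are too small for a search for single outlying arrays.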

How the results depend on the processing

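The count of genes called below the midpoint was 1 over both cell types, 1 in FO and 1 in MZ cells, in each case Sh3bgrl2, which the filter on low values fixed as below it, so these counts show nothing about allele dose. It became 0 in FO cells with the 6 FO arrays alone, and 0 in MZ cells with the 6 MZ arrays alone, the mean of all probe sets, trended robust moderation, quantile normalization over all arrays or a replicate block. Leaving out 1 array at a time gave 1 to 2 over both cell types, 1 in FO and 0 to 3 in MZ cells. The highest counts came without MZ +/+ replicate 2, which leaves 1 array in that group. They include Adgrl2, at -1.71 over both cell types and -1.69 in MZ cells. The filter fixed Adgrl2 as below the midpoint too, so its part in these counts shows nothing about allele dose. The MZ count also includes Sspn, at -2.12. The MZ against FO count in +/flox arrays was 5, from 2 to 6 without 1 array and 6 with a replicate block, where Upb1 passed too (limma adjusted p = 0.0207); Upb1 and Arhgap33 also passed in the settings given above. The count of related genes was 0 in each comparison, 1 over both cell types after quantile normalization, and 0 to 2 over both, 0 in FO and 0 to 2 in MZ cells without 1 array. For the values of single genes, 758 recomputed values kept their direction and side of the threshold, 27 no longer passed, 10 newly passed and 11 that passed in neither setting changed sign; none that passed changed sign.

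The labels do not say that equal replicate numbers mark a shared mouse or day. Deviations of replicate 1 from the group mean correlated over tested genes at -0.26 between FO flox/flox and FO +/+, 0.77 between FO flox/flox and FO +/flox and 0.58 between MZ flox/flox and MZ +/+ arrays. For MZ +/flox arrays they correlated at -0.03 with MZ +/+ and at 0.04 with MZ flox/flox arrays. A block by replicate number cannot capture deviations that differ between groups in this way. Apart from the MZ call of Sh3bgrl2 and that of Upb1, the block changed no call, and nothing is read from this. With 2 arrays a group, values near the minimum bound what a lower level can show.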
